A study of Mus musculus with 6 samples.

Results

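Mitochondrial ribosomal protein genes were followed in mouse retina on 6 short-oligonucleotide expression arrays. The members were all genes of the array whose single symbol starts with Mrpl or Mrps followed by a digit. This rule gave 76 of the 18193 genes with a single symbol, 47 named for the large subunit (Mrpl) and 29 for the small subunit (Mrps). They were measured by 156 of 45037 probe sets, a probe set being a group of short probes that together give 1 signal for 1 transcript. Each gene was represented by its probe set with the highest mean log2 signal over the 6 arrays, and 42 of the 76 genes had more than 1. A further 4 probe sets carried a mitoribosomal symbol together with that of another gene and were left out, so Mrpl30 and Mrpl53 were not analysed here.

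Of the 6 arrays, 3 held RNA labelled wildtype, from C57Bl/6 mice, and 3 held RNA labelled ERRβ -/-, from mice of mixed C57Bl/6 and Sv129 background. In both groups the retinas were taken at postnatal day 21 from animals of mixed sex, and 2 retinas were pooled for each RNA. The question is how the retinal transcriptome differs when Esrrb is targeted, the gene of the orphan nuclear receptor ERRβ. Genotype and strain cannot be told apart, since they differ together, and the labels do not describe the allele. They also do not say whether the pools came from separate animals, so p-values measure only the spread between these samples.

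The mitochondrial ribosome is a separate machine from the ribosome of the cytosol. It translates the messenger RNAs of mitochondrial DNA, which encode core subunits of the respiratory chain and of ATP synthase. Its RNAs come from mitochondrial DNA, while all of its proteins are encoded in the nucleus, made in the cytosol and imported. Photoreceptors pack mitochondria into their inner segments and have a high demand for ATP, and ERR receptors are known as regulators of nuclear genes for mitochondrial proteins.

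The arrays came in 2 scales. With the top and bottom 2% of probe sets removed, the mean signal was near 500 on the arrays of replicates 1 and 2 and near 150 on those of replicate 3, in both groups. Correlations of log2 signals ran from 0.9103 to 0.9505 within a scale and from 0.8481 to 0.8716 between scales. Differences are therefore given as labelled knockout minus wildtype on the log2 scale with a standard error (SE, n = 3 arrays per group) from a limma fit that keeps this scaling batch as a block, and also within the 4 arrays scaled near 500 and the 2 scaled near 150. Signals are in array units and are compared only within a gene, since probe sets differ in how strongly they bind. None of the 13 measured rod markers lay below the array median in all 6 arrays, while 8 of 10 skeletal muscle markers did. Labelled knockout arrays did not read lower for Esrrb. It read 2951 and 2934 in wildtype arrays scaled near 500 and 3435 and 4012 in their labelled knockout counterparts, and 1771 against 2397 near 150. The sources used here do not place its probes relative to the deleted part, so this does not check the labels, and the group is called labelled knockout throughout.

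The stretches upstream of 4 members are shown because these genes had the largest differences in their subunits or carry one of the motifs searched. The sequences are from RefSeq on GRCm38.p6, read on the strand of the gene, and cover the 120 bases before the annotated start. Capitals mark a match to CCGGAAG, the core bound by ETS factors such as GABP, or to the NRF-1 consensus, a GC-rich palindrome, on either strand. The windows are chr9:105053148-105053267 (plus strand) for Mrpl3, chr11:115403632-115403751 (plus) for Mrpl58, chr7:105811088-105811207 (minus) for Mrpl17 and chr11:115604020-115604139 (plus) for Mrps7.
Mrpl3: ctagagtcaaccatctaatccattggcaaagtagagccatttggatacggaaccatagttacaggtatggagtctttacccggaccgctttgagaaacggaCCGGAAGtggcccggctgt
Mrpl58: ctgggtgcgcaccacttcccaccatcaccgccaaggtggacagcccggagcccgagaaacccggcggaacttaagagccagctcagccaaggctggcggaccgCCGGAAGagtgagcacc
Mrpl17: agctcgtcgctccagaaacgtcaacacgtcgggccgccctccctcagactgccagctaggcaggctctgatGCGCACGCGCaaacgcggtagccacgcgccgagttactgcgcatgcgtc
Mrps7: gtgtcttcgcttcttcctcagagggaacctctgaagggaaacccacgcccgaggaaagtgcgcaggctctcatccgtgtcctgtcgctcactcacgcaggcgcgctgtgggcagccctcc

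Of the 76 members, 67 had an entry in the promoter table, whose windows run from 250 bases before to 50 bases after the start. The ETS core CCGGAAG was found in 24 of these 67 windows (35.8%), against 17.5% of 10119 windows of genes tested on the array and 9.12% of all 27018 windows. The NRF-1 consensus was found in 12 of 67 (17.9%), against 10.4% and 4.79%. Both were present for Mrpl17, Mrpl57, Mrps21 and Mrps26, and the ETS match of Mrpl17 lies outside the stretch shown. The extended half-site of ERR receptors, TCAAGGTCA, was found in 0 of 67 windows, against 0.287% of windows of tested genes. Its core AAGGTCA, which lies within it, was found in 4 (5.97%, for Mrpl12, Mrpl36, Mrps15 and Mrps21), against 3.02%. All 4 motifs were searched on both strands. Each share describes letters in these windows only. The median log2 difference was 0.21 for the 24 members with the ETS core and 0.20 for the members without it, and 0.20 with and 0.21 without the NRF-1 motif.

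No mitoribosomal gene was called, but nearly all lay slightly above wildtype. All 76 members passed the filter on low signal, and 0 of 76 reached an adjusted p under 0.05 (limma with Benjamini-Hochberg adjustment over 27022 probe sets). The same fit called 2.75% of the 12536 genes tested, and 1.28% were called higher. At an unadjusted p under 0.05, 29 members were higher and 0 were lower, where 11.5% of all genes tested were higher. The log2 difference was above 0 in 73 of 76 members, against 53.1% of all genes. It was 0.2 or more in 43 members, against 22.3% of all genes. The median difference was 0.24 for the large subunit, a fold of 1.18, with 45 of 47 members above 0. For the small subunit the median was 0.18, with 28 of 29 above 0. Over all genes tested the median was 0.020. The members were chosen with these results known, so the counts describe the set and no test of the set was made.

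**Figure D1:**
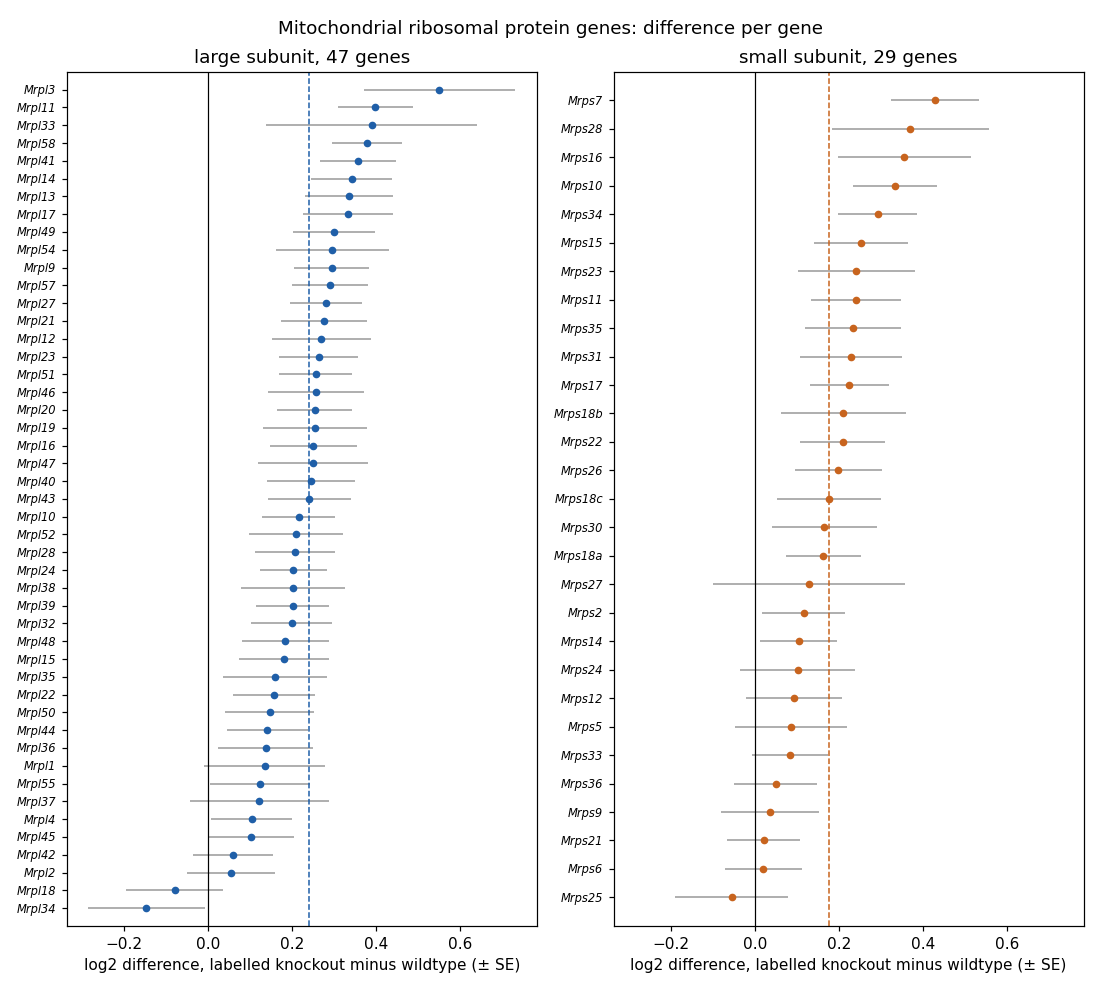
Log2 difference of labelled knockout minus wildtype for each member (points) with its SE (bars, n = 3 arrays per group), large subunit on the left and small subunit on the right, with dashed lines at the medians of 0.24 and 0.18. All but Mrpl18, Mrpl34 and Mrps25 lie to the right of 0, and no gene reached an adjusted p under 0.05 in limma.

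The shift was seen in both replicates scaled near 500 and in the pair scaled near 150. Each array's deviation from the mean of its own scaling batch, taken as the median over the large subunit genes, was -0.12 and -0.13 for wildtype replicates 1 and 2, and 0.14 and 0.11 for their labelled knockout counterparts. In replicate 3 it was -0.091 and 0.091. For the small subunit these medians were -0.10 and -0.081, then 0.10 and 0.071, and -0.066 and 0.066 in replicate 3. The same medians over all genes tested were -0.012, -0.0056, 0.021 and 0.011, and -0.0083 and 0.0083. The values of replicate 3 mirror each other by construction, with 1 array per group at that scale, and count as 1 difference. The medians of the members were farther from 0 than those of all genes on each array. Split by signal into 10 bins of equal size, numbered from the dimmest, the genes tested had medians from -0.027 in bin 1 to 0.044 in bin 3. The members lay in bins 3 to 9. Their medians there ran from 0.13 in bin 3, which held 1 member, to 0.26 in bin 9, which held 7.

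Both sets of arrays carried the shift, but not gene by gene. The large subunit median was 0.27 in the arrays scaled near 500, with 43 of 47 above 0, and 0.18 in those scaled near 150, with 41 of 47 above 0. The small subunit medians were 0.16 (27 of 29) and 0.13 (21 of 29). In 41 of 76 members, 29 large and 12 small, the labelled knockout arrays lay above the wildtype arrays at both scales without overlap, and in 0 members did they lie below at both. Over all genes tested these shares were 19.8% and 15.5%. Near 150 there was 1 array per group, so at that scale this compares only the order of 2 values, however close. The difference was above 0 at both scales in 56 members, against 31% of all genes. In 20 members the difference had opposite signs in the 2 sets of arrays. In the arrays scaled near 500 alone, 20 members were called higher and 1 lower (limma), where 7.49% of all genes tested were called higher. This fit has only 2 arrays per group. Leaving out the wildtype or the labelled knockout array scaled near 150 gave 18 and 17 members called. Over all 27022 probe sets, 3697 and 3710 were called. The array that remains at that scale is alone in its block and adds nothing to the difference. These counts therefore draw on the same 4 arrays as the fit near 500 and add no support. With a replicate block 0 members were called, and the lowest adjusted p among them was 0.124.

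**Figure D2:**
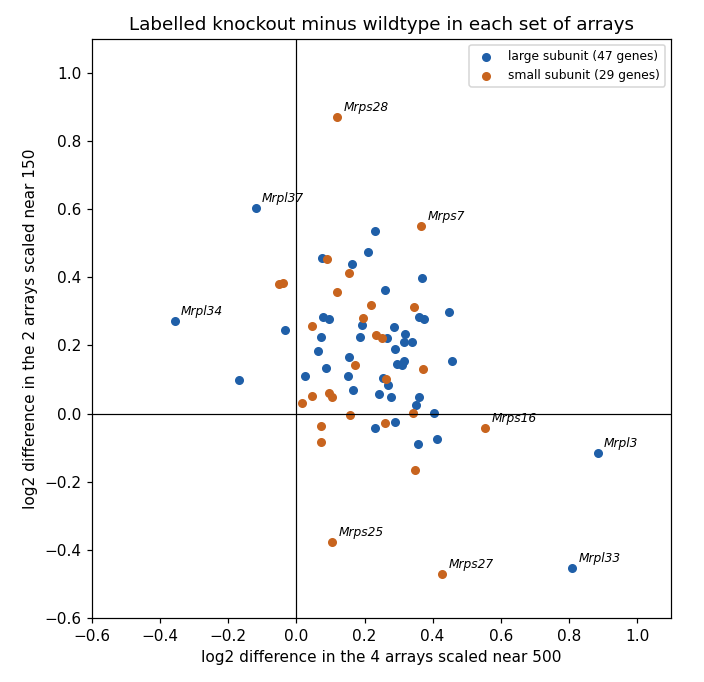
Log2 difference of each member (points, coloured by subunit) in the 4 arrays scaled near 500 (horizontal axis) against the 2 arrays scaled near 150 (vertical axis). Most members lie in the upper right part, where both differences are above 0, while Mrpl3 and Mrpl33 are high on the horizontal axis alone and Mrps28 on the vertical axis.

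Among the large subunit proteins with counterparts in the bacterial ribosome, Mrpl3 and Mrpl11 gave the largest differences. Mrpl3, a universal protein that reaches towards the peptidyl transferase centre, read 819 and 903 in wildtype arrays scaled near 500 and 1564 and 1613 in their labelled knockout counterparts. In the arrays scaled near 150 it read 246 against 227, so the groups were far apart at one scale and in the opposite order at the other. Its difference was 0.89 near 500 and -0.12 near 150, and 0.55 ± 0.18 over both (adjusted p = 0.138 in limma). Mrpl3 was the 1 member for which the difference between the scales itself passed (-1.002 ± 0.18, adjusted p = 0.0336 for the interaction in limma), where 1.17% of all genes tested passed. A second probe set of Mrpl3 gave 0.76 and -0.019, another 0.66 and -0.13 at the 2 scales,, and the last, dimmer one 0.14 and -0.51.

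Mrpl11 forms the base of the stalk on which translation factors land. It read 1202 and 1275 in wildtype arrays scaled near 500 and 1673 and 1705 in their labelled knockout counterparts, and 296 against 364 near 150. All labelled knockout arrays lay above wildtype at both scales, with a difference of 0.40 ± 0.089 (adjusted p = 0.0543 in limma). The other stalk genes, Mrpl10 and Mrpl12, had 0.22 ± 0.087 and 0.27 ± 0.12, with labelled knockout above wildtype at both scales. For Mrpl12, whose product also binds the mitochondrial RNA polymerase, the difference was 0.40 near 500 and 0.0028 near 150. Mrpl14, which sits at the interface between the subunits, read 947 and 925 against 1219 and 1208, and 172 against 208 (0.34 ± 0.096, adjusted p = 0.0987). Mrpl13 read 2666 and 2065 against 3040 and 2985, and 279 against 340 (0.34 ± 0.10, adjusted p = 0.122). Mrpl17 read 1578 and 1355 against 1707 and 1728, and 175 against 254 (0.33 ± 0.11, adjusted p = 0.13). For these 3 genes the labelled knockout arrays lay above wildtype at both scales.

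Mrpl33 and Mrpl34, both small proteins of bacterial type, were among the 20 members with opposite signs at the 2 scales. Mrpl33 read 385 and 357 in wildtype arrays scaled near 500 and 734 and 576 in their labelled knockout counterparts, and 51.3 against 37.4 near 150. It was the 1 member whose signal fell under an array's median, so its value near 150 is uncertain, and its difference of 0.39 had the largest SE of all members, 0.25 (adjusted p = 0.419). Mrpl34 read 1447 and 1310 against 1049 and 1101, then 134 against 162. It was thus lower at one scale and higher at the other, with -0.36 near 500, -0.15 ± 0.14 over both (adjusted p = 0.59 in limma) and 0.63 ± 0.19 between the scales (adjusted p = 0.153 for the interaction). It was the member called lower in the arrays scaled near 500 alone (adjusted p = 0.038). Mrpl18, of the 5S RNA-binding family, was the other large subunit member under 0 (-0.08 ± 0.12).

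Of the large subunit proteins that are not part of the bacterial ribosome, Mrpl58 came closest to the threshold. Its product, also called ICT1, is a peptidyl-tRNA hydrolase that frees stalled mitochondrial ribosomes. It read 1777 and 1911 in wildtype arrays scaled near 500 and 2348 and 2407 in their labelled knockout counterparts, and 221 against 292 near 150. Labelled knockout arrays lay above wildtype at both scales, and the difference of 0.38 ± 0.084 was of like size in each (0.37 and 0.40, adjusted p = 0.0529 in limma). Mrpl41 read 2565 and 2632 against 3514 and 3621, and 231 against 257 (0.36 ± 0.091, adjusted p = 0.0754). All 18 measured large subunit genes of this kind had a difference above 0, with a median of 0.22, and the 29 with counterparts in the bacterial ribosome had a median of 0.25. Some members were grouped by site, and these groups do not hold every protein of a site. At the tunnel exit, where nascent chains leave, the 6 grouped genes Mrpl22, Mrpl23, Mrpl24, Mrpl39, Mrpl44 and Mrpl45 ran from 0.10 to 0.26. For the central protuberance the 6 grouped genes Mrpl18, Mrpl27, Mrpl38, Mrpl40, Mrpl46 and Mrpl48 ran from -0.08 to 0.28.

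**Figure D3:**
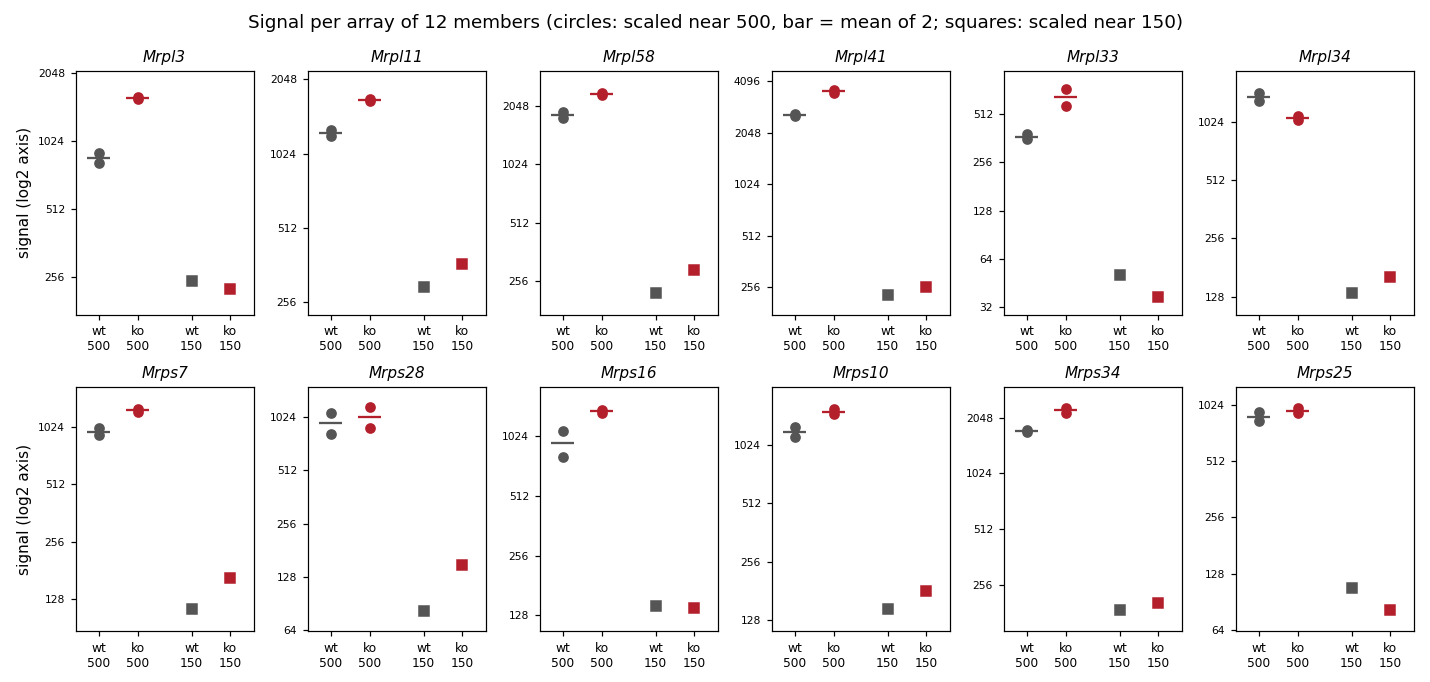
Signal on a log2 axis for 12 members on each array, with wildtype (wt) in grey and labelled knockout (ko) in red, circles for the arrays scaled near 500 with a bar at the mean of 2, and squares for the arrays scaled near 150. Mrpl11, Mrpl58, Mrpl41, Mrps7, Mrps10 and Mrps34 have labelled knockout above wildtype at both scales, while Mrpl3, Mrpl33, Mrpl34, Mrps16 and Mrps25 change order between them.

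In the small subunit Mrps7, a universal protein of the head, gave the largest difference. It read 927 and 1006 in wildtype arrays scaled near 500 and 1219 and 1272 in their labelled knockout counterparts, and 113 against 166 near 150. All labelled knockout arrays lay above wildtype at both scales, with 0.43 ± 0.105, a fold of 1.35 (adjusted p = 0.0681 in limma). Mrps10 read 1118 and 1268 against 1559 and 1465, and 146 against 182 (0.33 ± 0.10, adjusted p = 0.112). Mrps34, which has no counterpart in the bacterial ribosome, read 1709 and 1745 against 2170 and 2302, and 187 against 205 (0.29 ± 0.093, adjusted p = 0.129). For these 2 genes too, labelled knockout arrays lay above wildtype at both scales.

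Mrps28 and Mrps16 had differences of similar size with a wider spread. Mrps28 read 1083 and 819 against 1170 and 896, and 81.7 against 149, so the groups overlapped near 500 and the difference of 0.37 ± 0.19 rested on the arrays scaled near 150 (0.87 there and 0.12 near 500). Mrps16 read 1091 and 802 against 1348 and 1400, and 142 against 138 (0.36 ± 0.16, adjusted p = 0.243), the reverse case. Mrps15 (0.25 ± 0.11), Mrps23 (0.24 ± 0.14) and Mrps11 (0.24 ± 0.11) followed. Mrps25, a protein without a counterpart in the bacterial ribosome, was the 1 small subunit member under 0, at -0.06 ± 0.13, with 0.11 near 500 and -0.38 near 150.

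Symbols do not follow the structure in every case. Mrps30 and Mrps18a belong to the large subunit in the assembled mitochondrial ribosome, and Mrps36 is a component of the α-ketoglutarate dehydrogenase complex. Their differences were 0.16 ± 0.12, 0.16 ± 0.089 and 0.05 ± 0.099. With these 3 moved or left out, the medians were 0.22 for 49 large subunit genes and 0.20 for 26 small subunit genes, so the gap between the subunits depends on how genes are assigned. Across both subunits the median was 0.21 for 47 genes with counterparts in the bacterial ribosome and 0.21 for 28 without.

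Other probe sets of the members shared the direction where their signal was high. Of the 80 that did not represent a gene, 68 passed the filter. Among these, 40 were above the array median on all 6 arrays, and 34 of the 40 had a difference above 0 (median 0.19). The other 28 were below the median on at least 1 array, and 12 of the 28 were above 0 (median -0.13). The 34 genes measured by a single probe set had a median of 0.21, with 33 above 0. In 4 genes probe sets differed in sign with both sizes over 0.3. They were Mrpl11 (0.40 against -0.41), Mrpl17 (0.33 against -0.35 and -0.42), Mrps9 (0.32 against -0.36 for lesser probe sets, beside 0.036 for the brightest) and Mrpl13 (0.34 against -1.49 for a probe set below the filter). Of the member probe sets other than the brightest, 1 was called, where 2.25% of all probe sets tested were. It was a second one of Mrpl49, singled out after its value was seen, which read 1391 and 1482 against 1877 and 2033, and 163 against 249 (0.50 ± 0.094, adjusted p = 0.031 in limma, and 0.0791 with a replicate block). The brightest probe set of Mrpl49 had 0.30 ± 0.098 (adjusted p = 0.138).

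**Figure D4:**
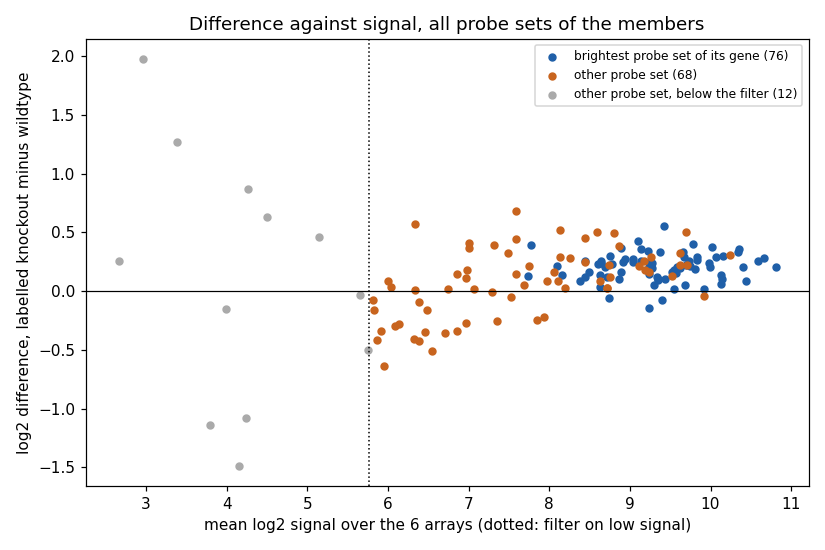
Log2 difference of labelled knockout minus wildtype against mean log2 signal for all 156 probe sets of the members, with the brightest of each gene in blue, others in orange and those below the filter in grey. The 76 brightest probe sets form a band mostly above 0, and the dim probe sets spread to either side.

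The other proteins of the mitochondrial ribosome and the machinery around it were taken from lists. Of 4 mitoribosomal proteins under other symbols, 1 was called, where 2.75% of all genes tested were. Chchd1, a small subunit protein, rose from 1776 and 1917 to 2415 and 2376 in the arrays scaled near 500, and read 315 against 417 near 150 (0.39 ± 0.082, adjusted p = 0.0467 in limma). It did not pass with a replicate block (adjusted p = 0.116). The others, Dap3, Ptcd3 and Gadd45gip1, had 0.21, 0.14 and 0.089. Factors that assemble the mitoribosome or modify its RNA had a median of 0.15 in 22 measured genes, with 18 above 0, against 53.1% of all genes, and 0 called. At an unadjusted p under 0.05 in limma there were 3, all higher, where 11.5% of all genes tested were higher. In either direction 21.3% of all genes tested passed, and the counts given so for the next lists, in either direction, read against this share. Among the assembly factors the pseudouridine synthase gene Trub2 had 0.57 ± 0.13 (adjusted p = 0.0625 in limma). Eral1, a GTPase that binds small subunit RNA, had 0.34 ± 0.10 (adjusted p = 0.107). The 13 translation factors had a median of 0.12, with Mrrf, the ribosome recycling factor, at 0.46 ± 0.23 and Gfm2, another recycling factor, at 0.29 ± 0.13, and 0 called (1 at an unadjusted p under 0.05). The value of Mrrf also rested on replicate 3, at 59.2 in wildtype against 145, and without replicate 3 it was 0.049. The 21 aminoacyl-tRNA synthetase and amidotransferase genes had a median of 0.033, and 0 were called (2 at an unadjusted p under 0.05). The largest were Aars2 (-0.49 ± 0.30) and Gars, which also serves the cytosol (0.33 ± 0.081, adjusted p = 0.0671). The value of Aars2 rested on replicate 3, where it read 39.9 in wildtype against 14.9, both under the array medians, and near 500 its difference was -0.018.

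Among 14 genes that maintain and transcribe mitochondrial DNA (median 0.070), 2 were called in opposite directions, where 2.75% of all genes tested were called. Polg2, the accessory subunit of mitochondrial DNA polymerase, fell from 3501 and 3405 to 1506 and 1571 in the arrays scaled near 500 and read 353 against 218 near 150. This was -1.01 ± 0.11 (adjusted p = 0.00225, and 0.0109 with a replicate block). Top1mt, the mitochondrial type I topoisomerase, rose from 516 and 406 to 867 and 760, and read 81.0 against 113 (0.71 ± 0.15, adjusted p = 0.0456 in limma). It did not pass with a replicate block (adjusted p = 0.0791). Of 10 measured upstream regulators 0 were called (2 at an unadjusted p under 0.05). Esrrb had 0.37 ± 0.082 (adjusted p = 0.0529 in limma) and the coactivator gene Ppargc1a -0.31 ± 0.099 (adjusted p = 0.128). Over all 84 genes tested from these lists, 2 were called higher and 1 lower, where 2.75% of all genes tested were called. A difference above 0 was found in 58 (69.0%), against 53.1% of all genes, and the median was 0.071.

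Other large protein machines also had medians above that of all genes. The median was 0.15 for 50 cytosolic ribosomal protein genes (41 above 0), 0.19 for 36 proteasome subunit genes (35 above 0, 1 called higher) and 0.11 for 75 genes of the respiratory chain and ATP synthase (54 above 0, 1 called lower). Over all genes tested the median was 0.020, 53.1% were above 0, and 2.75% were called (1.28% higher). The values of the sets are descriptions side by side, and no difference between the sets was tested.

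**Figure D5:**
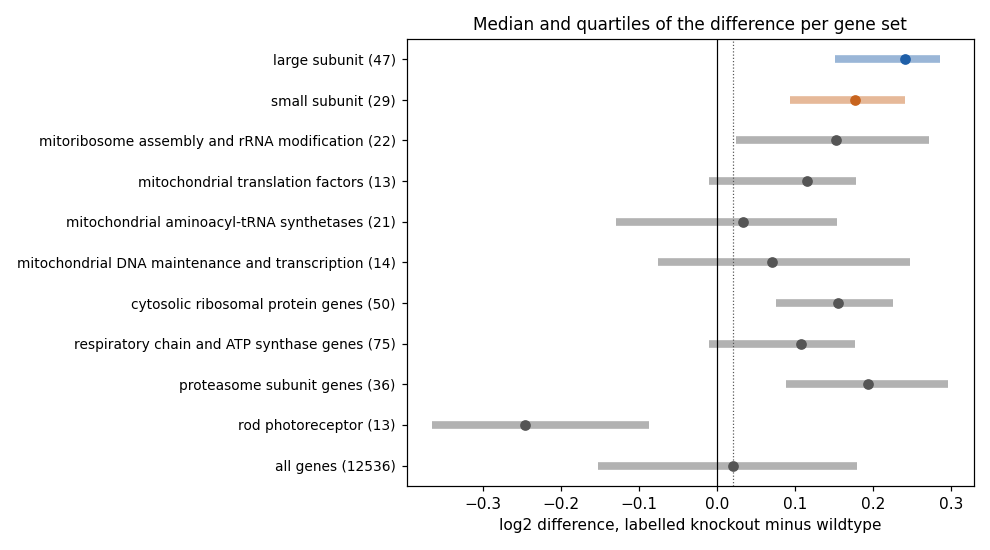
Median (points) and quartiles (bars) of the log2 difference of labelled knockout minus wildtype for gene sets, with the number of genes tested in brackets and a dotted line at the median of all genes. The large and small subunit sets lie at 0.24 and 0.18, near the proteasome set at 0.19 and above the median of 0.020 for all genes.

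Markers of other cells differed in the same arrays. The summed signal of 17 lens genes was 5438 and 6551 in wildtype arrays scaled near 500 and 63907 and 73386 in their labelled knockout counterparts, and 10039 against 51710.5 near 150, and 15 of the 17 were called higher. The sum of 12 pigment epithelium and choroid genes was 43299 and 44634 against 49952 and 56873, and 2642 against 3431 (4 of 11 tested called higher, where 1.28% of all genes were). For 13 rod genes it was 394001 and 395578 against 318536 and 345824, and 54318 in labelled knockout against 56194.5 in wildtype near 150, with 0 called and a median difference of -0.25. At an unadjusted p under 0.05 in limma, 8 of the 13 were lower, where 1233 of the 12536 genes tested were. In the arrays scaled near 500 alone the rod median was -0.27, beside subunit medians of 0.27 and 0.16. There 0 of 13 rod genes were above 0 and 7 were called lower, where 855 of the 12536 genes tested were. In the arrays scaled near 150 the rod median was 0.0029, beside 0.18 and 0.13. For 10 Müller glia genes 0 were called and the median was 0.16. It was 0.14 in the arrays scaled near 500 (9 of 10 above 0) and -0.032 near 150 (5 of 10). The ratio of 3′ to 5′ signal of Actb, a sign of RNA quality, ran from 1.83 to 2.32 in wildtype and from 1.66 to 1.82 in labelled knockout arrays, and that of Gapdh from 0.712 to 0.779 with no split. The part of cell makeup or RNA quality in the shift of either subunit was not tested. In whole retina, fewer cells of a type and less RNA per cell cannot be told apart.

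No member lies on the chromosome of Esrrb in the GRCm38.p6 gene order. Some members share a start region with another gene. Of the 67 with an entry, 24 (35.8%) had a start on the opposite strand within 1000 bases upstream, against 16.8% of genes tested. One such pair joins both subunits. Mrpl46 and Mrps11 start 42 bases apart on opposite strands, and the stretch between them (chr7:78783090-78783130, plus strand) is shown because it is upstream of both; it held 0 of the motifs searched.
Mrpl46 and Mrps11: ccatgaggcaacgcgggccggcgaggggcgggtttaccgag
Mrpl46 read 858 and 915 in wildtype arrays scaled near 500 and 1073 and 1206 in their labelled knockout counterparts, and 174 against 180 near 150 (0.26 ± 0.11). Mrps11 read 1147 and 960 against 1284 and 1214, and 167 against 195 (0.24 ± 0.11). In both genes the labelled knockout arrays lay above wildtype at both scales, and neither passed (adjusted p = 0.246 and 0.244 in limma).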

How the data were processed

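The values the authors deposited are linear intensities, with 1 value for each probe set on each array. The submitters' processing notes name GCOS 1.4 and MAS5, without role or order, and per the labels' protocols the RNA was amplified in a single round from an oligo dT primer. Of 45101 probe sets, 64 controls were left out. Signals were taken to log2 with no further normalization, and probe sets were kept where the mean log2 signal reached the 40th percentile (a geometric mean signal of 54.5), which left 27022.

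Groups were compared with limma 3.58.1 in R 4.3.3 (variance trend, two-sided, Benjamini-Hochberg adjustment over kept probe sets, threshold 0.05), with the scaling batch as a block, and an interaction term tested the difference between scales. The fit was also run on simulated signals with independent noise for each probe set. These signals do not imitate shifts shared by probe sets or group differences that vary between scales. Gene symbols came from the platform annotation, which gives 34945 probe sets 1 symbol, 932 several and 9160 none. Of 93 entries in the pathway lists, 88 matched a gene by symbol or synonym. Members and lists were chosen with earlier results of these data known.

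The text names members that were called, the 8 with the largest differences in each subunit, the 6 largest whose groups did not overlap at either scale, members with opposed probe sets, and in each list the called genes and the 2 largest. Members singled out by site, by sign or by a shared start were chosen after their values were seen. Same-numbered samples had deviations from their group means that correlated at 0.5701, 0.6699 and 0.8433. Crossing numbers 1 and 2 gave 0.6068 and 0.6266, so these values do not show that numbers 1 and 2 pair the samples. Replicate 3, with the highest value, is also the scaling batch. Alternatives were a replicate block, no block, other filters, an offset of 16, other normalizations, other choices of probe set, each set of arrays alone, no variance trend and each array left out.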

Additional observations from a re-analysis of the deposited data

How the results depend on the processing

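The direction of both medians was the same under every setting tried, but several settings could not change it. The block, the filter on low signal and the variance trend leave the fitted differences of the members as they are. Leaving out an array scaled near 150 gives the difference of the arrays scaled near 500. The large subunit median was 0.24 as reported, 0.18 in the arrays scaled near 150 only, and 0.16 with the mean of all kept probe sets of a gene. With that mean the small subunit median was 0.17, so the order of the subunits changed. The difference was then above 0 in 66 of 76 members, against 73 as reported. Single arrays left out gave 0.21 to 0.27. Calls among members depended on the setting. There were 0 of each subunit as reported and with a replicate block, 2 large and 1 small (Mrpl11, Mrpl58, Mrps7) with a stricter filter on low signal, which tests fewer probe sets, 16 and 5 in the arrays scaled near 500 only, and 1 and 1 (Mrpl49, Mrps7) with the mean of a gene's probe sets. Leaving out single arrays gave 0 to 14 large and 0 to 4 small subunit calls. The highest counts came with 1 of the arrays scaled near 150 left out, which leaves the difference to the arrays scaled near 500. For the other genes of mitochondrial translation the count was 3 as reported, 0 with no block or no variance trend, 1 with a replicate block or no filter, 6 with the stricter filter, 9 near 500 only, 5 with gene means, and 1 to 9 with single arrays left out. Over all probe sets 609 were called, 0 with no block, 200 with a replicate block, 405 with no filter, 955 with the stricter filter, 3687 near 500 only, 401 genes with gene means, 19 with no variance trend, and 77 to 3710 with single arrays left out. Except where named, the cause was not tested. Quantile normalization gave medians of 0.21 and 0.15, against 0.030 for all genes, and cyclic loess, chosen after seeing the data, 0.23 and 0.18, against 0.038. Precision is limited by 3 arrays per group, and signals of dim probe sets carry no detection call here.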

Other observations

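The genes that start head to head with a mitoribosomal gene had a smaller median difference than the members they face. Of the 24 neighbours, which include Mrpl46 and Mrps11 facing each other, 20 were tested. A difference above 0 was found in 13 of the 20, against 53.1% of all genes, and their median was 0.11, against 0.23 for the members. None was called (0 of 20 in limma), where 2.75% of all genes tested were. For Mrps7 (0.43) the neighbour Gga3, a sorting adaptor gene, had -0.0076, and for Mrpl14 (0.34) Tmem63b had -0.027. For Mrpl32 (0.20) the neighbour Psma2, a proteasome subunit gene, had 0.31 (adjusted p = 0.0868). For Mrpl18 (-0.08) the chaperonin gene Tcp1 had 0.23. These genes were looked at after the members' values were known, and the difference between members and neighbours was not tested.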
